A study of Mus musculus with 12 samples.

Results

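The genes described here are 10 subunits, inhibitors, feedback regulators and targets of the transcription factor NF-kB (Nfkb1, Nfkb2, Rel, Relb, Nfkbia, Nfkbiz, Bcl3, Tnfaip3, Birc3 and Icam1). They were chosen by name. A member was measured where a probe set carried its symbol and no other, which held for 9 of the 10 members among 19937 genes measured in this way. Each of the 9 had 1 probe set. Nfkb1 was not analysed here.

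Their levels were compared across 4 stable lines of 4T1, a mammary carcinoma cell line of BALB/cfC3H mice, with 3 arrays per line. The lines are named ΔSAP, mutB1 and FL for constructs of Mkl1 (gene symbol Mrtfa), a coactivator of serum response factor that actin controls, and control. FL is taken to stand for the full-length protein. As background, the B1 region is where Mkl1 contacts serum response factor, and SAP domains are thought to bind DNA. All 4 lines were kept for 48 h in DMEM with 0.03% serum, so every group, control included, was measured under serum starvation. The series design sets FL against mutB1 and against ΔSAP, and these are the main comparisons. Each construct was represented by 1 stable line, so a difference between constructs cannot be told apart from one between lines. All p-values measure the spread between cultures of a line.

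NF-kB is a family of dimers built from Rel-homology proteins. In resting cells IκB proteins hold the dimers in the cytoplasm, and IκB kinase, activated downstream of TNF, IL-1 and Toll-like receptors, marks IκB for destruction so that the dimers enter the nucleus. Among their targets are genes for their own inhibitors, which close a negative feedback loop, and genes for chemokines and adhesion molecules. In mammary carcinoma cells the pathway is known for its part in inflammatory signalling and survival.

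The promoters of 4 members are shown because they hold letters resembling a κB element close to the start of the gene, and because these members moved differently between the lines. Each is the 250 bases before the annotated start, 5′ to 3′ on the strand of the gene, from RefSeq on build GRCm38.p6. Capitals mark matches on either strand to the κB consensus decamer or to the 9 letters GGAAATTCC, which were searched for after the sequences had been seen. The windows are chr9:21015690-21015939 on the plus strand for Icam1, chr12:55492648-55492897 on the minus strand for Nfkbia, chr10:19015411-19015660 on the minus strand for Tnfaip3 and chr19:46304487-46304736 on the plus strand for Nfkb2.
Icam1: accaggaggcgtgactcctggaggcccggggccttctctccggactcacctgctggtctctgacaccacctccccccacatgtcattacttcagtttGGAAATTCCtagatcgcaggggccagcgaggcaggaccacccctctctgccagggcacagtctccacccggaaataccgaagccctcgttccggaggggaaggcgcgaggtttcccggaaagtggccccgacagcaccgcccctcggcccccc
Nfkbia: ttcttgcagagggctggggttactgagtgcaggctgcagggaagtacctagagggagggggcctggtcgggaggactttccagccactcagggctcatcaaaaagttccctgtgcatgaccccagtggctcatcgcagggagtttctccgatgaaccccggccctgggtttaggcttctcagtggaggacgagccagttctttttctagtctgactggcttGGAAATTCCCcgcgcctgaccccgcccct
Tnfaip3: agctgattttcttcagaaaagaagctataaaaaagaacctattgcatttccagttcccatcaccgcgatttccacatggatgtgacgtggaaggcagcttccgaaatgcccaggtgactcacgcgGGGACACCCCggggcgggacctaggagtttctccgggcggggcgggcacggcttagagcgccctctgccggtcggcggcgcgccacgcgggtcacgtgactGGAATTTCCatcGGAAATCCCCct
Nfkb2: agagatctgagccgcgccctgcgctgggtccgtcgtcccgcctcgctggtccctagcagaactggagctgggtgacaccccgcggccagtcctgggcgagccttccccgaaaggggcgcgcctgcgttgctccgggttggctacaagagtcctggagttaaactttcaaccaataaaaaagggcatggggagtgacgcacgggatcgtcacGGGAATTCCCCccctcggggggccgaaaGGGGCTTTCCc
The 9 letters began 153 bases before the start in Icam1, 29 bases before it in Nfkbia and, on the other strand, 24 bases before it in Tnfaip3. In Nfkbia they lay inside a match to the consensus decamer. RefSeq windows were at hand for 7 members, 10 windows in all. Tnfaip3, Rel, Nfkbia and Nfkb2 held a consensus match, and Icam1, Nfkbia and Tnfaip3 held the 9 letters. A further Tnfaip3 window, chr10:19011964-19012213 on the minus strand, held neither. Bcl3 and Birc3 held neither in the window read. Of 32851 mouse windows of this length, 7.25% held the consensus and 0.286% held the 9 letters. A match is a description of letters and was not tested as a binding site. Nfkbiz and Relb are named only.

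As a check of the lines, Mrtfa, the gene of the constructs, averaged 11.92 ± 0.04 in ΔSAP, 11.29 ± 0.11 in mutB1, 12.08 ± 0.06 in FL and 9.27 ± 0.01 in control (SD, n = 3). All 3 construct lines thus carried more Mrtfa signal than control, and mutB1 carried less than FL (-0.79 ± 0.06, adjusted p = 2.79e-06). Array medians lay between 6.35 and 6.45 (log2), and a line mean under 6.35 is called low here and may be background. Krt8 and Krt18, keratins of simple epithelia, were bright in every line, while Krt5 was low. Of 11 leukocyte markers 9 were low in every line, and of 10 endothelial markers 8 were low. The mean of 8 epithelial markers lay at 9.87 to 9.90 in ΔSAP, 8.30 to 8.39 in mutB1, 9.49 to 9.54 in FL and 9.31 to 9.39 in control, so mutB1 had the lowest epithelial marker signal. The mean of 12 fibroblast markers, Vim among them, was 6.80 to 6.89 in ΔSAP, 7.40 to 7.44 in mutB1, 6.83 to 6.89 in FL and 6.88 to 6.96 in control. RNA came from whole cultures, so fewer cells expressing a gene and less RNA per cell cannot be told apart.

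All values are log2 expression values, and a probe set's level is compared only with itself across lines. A difference was called at a limma p-value, adjusted over all 34760 probe sets, of at most 0.01. A ± after a difference is its standard error (SE), and the p beside it is this adjusted p. Some differences, such as those of markers, are given without them. Over the 9 members the standard deviation among the 3 arrays of a line was 0.01 to 0.10, and 8 of the 9 members differed between their highest and lowest line by 0.25 to 0.67. Icam1 was the exception, with a span of 1.57.

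Among the subunits, Rel, Relb and Nfkb2 were all highest in FL. Rel encodes c-Rel, a transactivating subunit. It read 9.61, 9.61 and 9.63 in ΔSAP, 9.40, 9.43 and 9.52 in mutB1, 9.70, 9.62 and 9.71 in FL and 9.25, 9.26 and 9.15 in control. Control lay below every array of the construct lines, mutB1 lay between, and ΔSAP and FL overlapped. Rel was above control in ΔSAP (0.40 ± 0.05, adjusted p = 0.00013), in mutB1 (0.23 ± 0.05, adjusted p = 0.00502), and in FL (0.46 ± 0.05, adjusted p = 3.21e-05). It was lower in mutB1 than in FL, with a difference of -0.22 ± 0.05 (adjusted p = 0.00464), whereas ΔSAP and FL differed by -0.06 ± 0.05 (adjusted p = 0.509), which was not called.

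Relb encodes RelB, the subunit that pairs with p52 in the non-canonical pathway. Its values were 8.21, 8.36 and 8.38 in ΔSAP, 8.31, 8.22 and 8.32 in mutB1, 8.52, 8.61 and 8.63 in FL and 8.09, 8.04 and 8.23 in control. The FL arrays stood above all the others, and the arrays of the other 3 lines overlapped. Relb was higher in FL than in control (0.47 ± 0.06, adjusted p = 0.000257) and lower in mutB1 than in FL (-0.30 ± 0.06, adjusted p = 0.005). The difference of ΔSAP from FL was of similar size, -0.27 ± 0.06 (adjusted p = 0.0137), and missed the call.

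Nfkb2 encodes p100, the precursor of p52, which also acts as an inhibitor before it is processed. It read 10.68, 10.66 and 10.74 in ΔSAP, 10.56, 10.51 and 10.52 in mutB1, 10.83, 10.83 and 10.85 in FL and 10.65, 10.61 and 10.66 in control. The FL arrays were the highest of the 12 and the mutB1 arrays the lowest, with no overlap. The order of the line means was FL, ΔSAP, control and mutB1, and ΔSAP and control, neighbours in that order, were not called different. Nfkb2 was lower in mutB1 than in FL (-0.31 ± 0.03, adjusted p = 8.32e-05) and higher in FL than in control (0.20 ± 0.03, adjusted p = 0.00135). That difference from control was no longer called when each array was centred on its median (0.15, adjusted p = 0.0406). Its call was also lost in a limma fit of the FL and control arrays alone (0.20, adjusted p = 0.011).

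The inhibitors of the IκB family did not move as a group. Nfkbia encodes IκBα, the classical cytoplasmic inhibitor and an immediate feedback target of NF-kB. It read 10.70, 10.70 and 10.73 in ΔSAP, 10.41, 10.48 and 10.41 in mutB1, 10.77, 10.80 and 10.88 in FL and 11.11, 11.07 and 11.13 in control. Unlike the 3 subunits, it was highest in control, and the 4 lines did not overlap. It was below control in ΔSAP (-0.39 ± 0.04, adjusted p = 4.93e-05), in mutB1 (-0.67 ± 0.04, adjusted p = 9.33e-07) and in FL (-0.29 ± 0.04, adjusted p = 0.000261). Within the construct lines it was lower in mutB1 than in FL (-0.38 ± 0.04, adjusted p = 4.63e-05) and higher in ΔSAP than in mutB1 (0.28 ± 0.04, adjusted p = 0.000482), and ΔSAP and FL were not called different (-0.10 ± 0.04, adjusted p = 0.118).

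Nfkbiz encodes IκBζ, a nuclear IκB protein that serves as a coactivator for a subset of NF-kB targets. Its values were 9.32, 9.26 and 9.19 in ΔSAP, 8.96, 8.98 and 8.92 in mutB1, 9.42, 9.29 and 9.33 in FL and 8.95, 8.996 and 8.94 in control. The arrays fell into a higher pair of lines, ΔSAP and FL, and a lower pair, mutB1 and control, with overlap inside each pair and none between them. The difference of mutB1 from FL was -0.39 ± 0.05 (adjusted p = 0.000124) and that of ΔSAP from mutB1 was 0.30 ± 0.05 (adjusted p = 0.000981). Relative to control, Nfkbiz rose in ΔSAP (0.29 ± 0.05, adjusted p = 0.00115) and in FL (0.39 ± 0.05, adjusted p = 0.000112). In mutB1 its difference from control was -0.01 ± 0.05 (adjusted p = 0.951), with a 95% interval of -0.11 to 0.10.

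Bcl3 encodes a nuclear IκB protein that binds p50 and p52 dimers and can turn them into activators. It read 9.94, 9.81 and 9.96 in ΔSAP, 10.22, 10.15 and 10.22 in mutB1, 10.17, 10.19 and 10.12 in FL and 9.91, 9.86 and 9.80 in control. Here the pairs were different: mutB1 and FL were high and overlapped, and ΔSAP and control were low and overlapped. Bcl3 was lower in ΔSAP than in FL (-0.26 ± 0.05, adjusted p = 0.00482) and lower in ΔSAP than in mutB1 (-0.29 ± 0.05, adjusted p = 0.00166). Between mutB1 and FL the difference was 0.04 ± 0.05 (adjusted p = 0.671), with a 95% interval of -0.07 to 0.15. Bcl3 was the only member besides Icam1 that was called between ΔSAP and FL.

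Tnfaip3 and Birc3 are ubiquitin-linked feedback regulators. Tnfaip3 encodes A20, which removes activating ubiquitin chains from signalling adaptors. Its values were 9.22, 9.25 and 9.21 in ΔSAP, 9.43, 9.45 and 9.51 in mutB1, 9.25, 9.19 and 9.34 in FL and 9.21, 9.24 and 9.19 in control. The mutB1 arrays were above all others, and ΔSAP, FL and control overlapped. Tnfaip3 was higher in mutB1 than in FL (0.20 ± 0.04, adjusted p = 0.00618) and higher in mutB1 than in control (0.25 ± 0.04, adjusted p = 0.00221), and it was the only member called higher in mutB1 than in FL. In ΔSAP its difference from FL was -0.04 ± 0.04 (adjusted p = 0.675), with a 95% interval of -0.13 to 0.06.

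Birc3 encodes cIAP2, a ubiquitin ligase of the TNF receptor complex and a target of NF-kB. It read 8.66, 8.61 and 8.78 in ΔSAP, 8.56, 8.62 and 8.54 in mutB1, 8.84, 8.91 and 8.87 in FL and 8.67, 8.73 and 8.69 in control. The FL arrays were the highest of the 12, and ΔSAP overlapped with mutB1 and with control. The only called difference was that of mutB1 from FL, -0.30 ± 0.05 (adjusted p = 0.000799). The differences of ΔSAP from FL (-0.19 ± 0.05, adjusted p = 0.0171) and of FL from control (0.18 ± 0.05, adjusted p = 0.0174) missed the call.

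Icam1 encodes an adhesion molecule that binds leukocyte integrins and is a widely used readout of NF-kB. Its values were 7.34, 7.31 and 7.35 in ΔSAP, 7.59, 7.54 and 7.59 in mutB1, 8.94, 8.91 and 8.86 in FL and 7.73, 7.61 and 7.72 in control. The FL arrays stood more than 1 log2 unit above every other array, and the order FL, control, mutB1 and ΔSAP held without overlap. Icam1 was 2.51-fold lower in mutB1 than in FL (-1.33 ± 0.04, adjusted p = 9.88e-09), 2.96-fold lower in ΔSAP than in FL (-1.57 ± 0.04, adjusted p = 2.32e-08) and 2.32-fold higher in FL than in control (1.21 ± 0.04, adjusted p = 1.53e-08). The ΔSAP line also lay under control (-0.35 ± 0.04, adjusted p = 0.000157), while the difference of mutB1 from control was -0.11 ± 0.04 (adjusted p = 0.0998) and was not called. By size of difference Icam1 ranked 217 of 19937 genes between mutB1 and FL, 43 between ΔSAP and FL and 294 between FL and control.

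**Figure D1:**
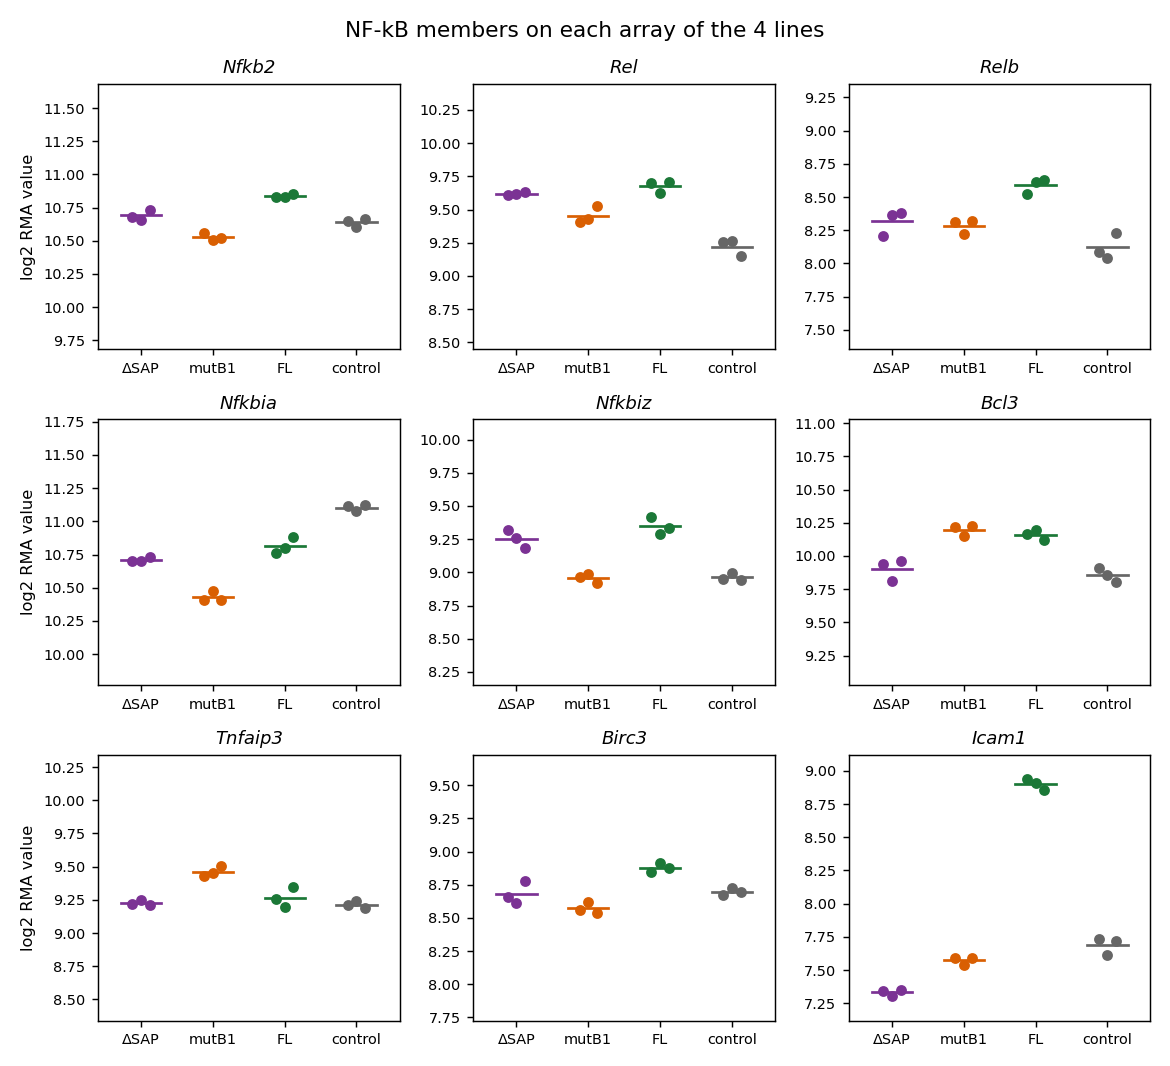
Log2 expression of the 9 measured members on each array (points) of the ΔSAP, mutB1, FL and control lines, with the line mean as a bar; every panel spans the same number of log2 units around its own values. Icam1 in FL stands apart at 8.86 to 8.94, Nfkbia is highest in control and Tnfaip3 is highest in mutB1.

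Counted by comparison, most members were lower in mutB1 than in FL. Of the 9 members 7 were lower (Nfkb2, Rel, Relb, Nfkbia, Nfkbiz, Birc3 and Icam1), 1 was higher (Tnfaip3) and Bcl3 was not called. Across all 19937 genes, 12.1% were called lower and 12.9% higher in mutB1. Among the 6471 genes with a mean level within the members' own range, 21.4% were lower and 23.9% higher. The median difference of the members was -0.30, against 0.02 over all genes. Only Icam1 passed the filters of the series design, which also ask for at least 2-fold and a mean of at least 4, and which 2.16% of all genes passed. Without Icam1 the largest difference was 0.39 in size. Cell type markers and the Mrtfa signal moved too. Of 8 epithelial markers 5 were lower in mutB1 than in FL, from -0.62 for Krt14 to -2.46 for Krt7, with Cdh1 at -2.23 and Epcam at -1.86, and Krt8 was higher (0.16). Of 12 fibroblast markers 3 were higher on the log2 scale, Pdgfrb by 3.96, Fbln1 by 1.61 and Pdgfra by 1.49. Of 11 leukocyte markers 1 was higher, S100a8 (1.57), and 1 lower, Cd68 (-1.05). The part of these differences in the members' was not tested. The count of 8 called members fell to 5 when mutB1 replicate 1 or mutB1 replicate 2 was left out, with Rel, Relb and Tnfaip3 lost each time. At least 1 of these 3 genes also lost its call without FL replicate 1, FL replicate 2, FL replicate 3, mutB1 replicate 3, control replicate 1, ΔSAP replicate 1 or ΔSAP replicate 3. The count was 6 when each array was centred on its median, with Rel and Relb lost. It was also 6 in a fit of the mutB1 and FL arrays alone, with Rel and Tnfaip3 lost.

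Between ΔSAP and FL only Icam1 and Bcl3 were called, both lower in ΔSAP. Over all genes 8.37% were called lower and 8.35% higher, and 0.697% passed the filters of the series design, Icam1 again being the only member. Of the genes at the members' level 16.0% were lower and 15.4% higher. The median of the members was -0.15, against -0.03 over all genes, and every member had a negative difference, of which 7 were not called. The call of Bcl3 was lost without FL replicate 1, FL replicate 2, ΔSAP replicate 1 or ΔSAP replicate 2, which leaves 1 called member, and in a fit of the ΔSAP and FL arrays alone. The count was 3 without control replicate 3, where Relb was called, and likewise without ΔSAP replicate 3, where Birc3 was called. With probe sets of a mean under 6 left out before adjustment, 5 members were called, all lower. Without Icam1 no member differed by more than 0.272. Cell type markers moved here too. Of 8 epithelial markers 6 were higher in ΔSAP than in FL, from 0.19 for Krt8 to 1.88 for Epcam, and none was lower. Of 12 fibroblast markers 2 were higher and 1 lower. The part of these marker differences in the members' was not tested.

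The mutant lines differed from each other in 6 members. In ΔSAP, Nfkb2, Nfkbia and Nfkbiz were higher than in mutB1, and Bcl3, Tnfaip3 and Icam1 were lower. Over all genes 10% were higher and 11.6% lower in ΔSAP, and 2.04% passed the filters of the series design, which no member did. Tnfaip3 differed by -0.24 ± 0.04 (adjusted p = 0.0027), Icam1 by -0.24 ± 0.04 (adjusted p = 0.00199) and Nfkb2 by 0.16 ± 0.03 (adjusted p = 0.00668). The call of Nfkb2 was lost in 14 of 20 alternatives. Without mutB1 replicate 3 the calls of Nfkb2, Tnfaip3 and Icam1 were lost and 3 remained. Tnfaip3 was not called without ΔSAP replicate 1 or ΔSAP replicate 3 either. In a fit of the ΔSAP and mutB1 arrays alone, which has fewer arrays for the spread, Nfkbia alone was called, and Nfkb2, Nfkbiz, Bcl3, Tnfaip3 and Icam1 were not, with adjusted p of 0.0535, 0.0119, 0.0194, 0.0142 and 0.0118.

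Against control, the FL line had the most called members, with 6 higher (Nfkb2, Rel, Relb, Nfkbiz, Bcl3 and Icam1) and Nfkbia lower. Over all genes 12.6% were higher and 15.0% lower in FL, and 22.7% and 29.0% of genes at the members' level. The median of the members was 0.30, against -0.03 over all genes. Icam1 alone passed the filters of the series design, which 2.2% of genes passed. Birc3 was also called without ΔSAP replicate 3.

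In mutB1, Rel, Bcl3 and Tnfaip3 were higher than in control and Nfkbia was lower. Over all genes 8.34% were higher, 10.4% lower and 1.71% past the filters of the series design. The difference of Bcl3 was 0.34 ± 0.05 (adjusted p = 0.000721). Without control replicate 3 or mutB1 replicate 3 the calls of Rel and Tnfaip3 were lost, which leaves 2, as they were in a fit of the mutB1 and control arrays alone, and that of Rel was also lost without control replicate 1 or mutB1 replicate 2. In ΔSAP, Rel and Nfkbiz were higher than in control and Nfkbia and Icam1 were lower. Over all genes 9.38% were higher, 11.7% lower and 1.79% past those filters. No member passed them in mutB1 or in ΔSAP against control. Comparisons with a line in common share its arrays, so their values are not independent of each other.

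**Figure D2:**
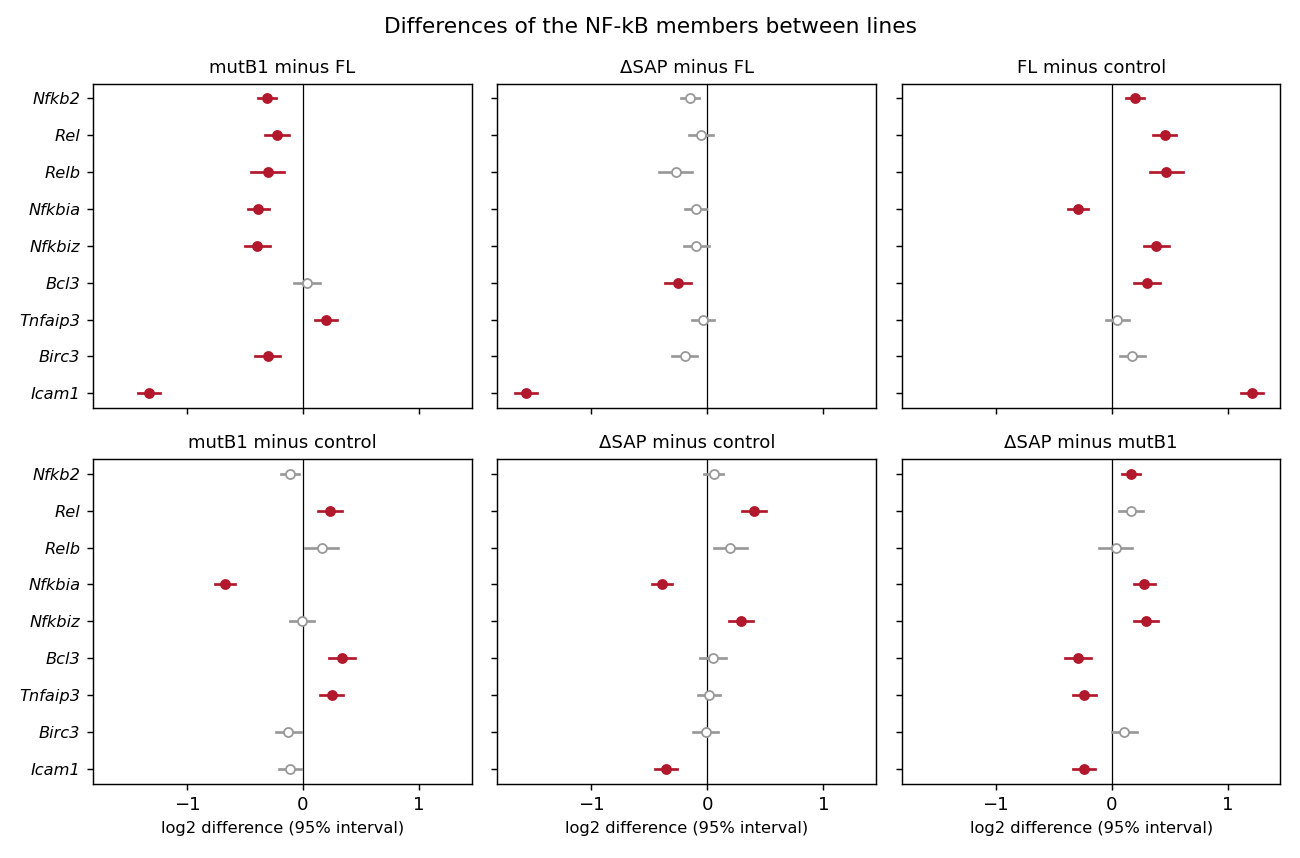
Log2 difference of each member (points, with 95% intervals) in the 6 comparisons of lines, the first line minus the second; filled red points have an adjusted p of at most 0.01 and open grey points do not. Icam1 lies at -1.33, -1.57 and 1.21 in the 3 upper panels, and the remaining members lie within 0.674 of 0 in all panels.

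The chemokine targets are set beside the members to show how far Icam1 and chemokine differences go with differences in the wider set. Chemokines attract leukocytes and are induced through NF-kB and, for several, through interferon signalling. All 12 chemokines listed were measured. In mutB1 against FL 7 (58.3%) were lower and none higher, with a median of -0.49. There 12.1% of all genes and 21.4% of genes at the members' level were lower. In ΔSAP against FL 8 (66.7%) were lower and 1 higher, with a median of -0.54. There 8.37% of all genes and 16.0% of genes at that level were lower. In FL against control 10 (83.3%) were higher and 1 lower, with a median of 1.11. There 12.6% of all genes and 22.7% of genes at that level were higher. The members' level runs from 7.87 to 10.77. Most of these chemokines have means above or below it, so the shares at that level are not matched to them.

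Ccl2, which attracts monocytes, averaged 10.58 ± 0.02 in ΔSAP, 11.67 ± 0.03 in mutB1, 12.03 ± 0.03 in FL and 10.09 ± 0.10 in control (SD, n = 3). It was lower than in FL in ΔSAP (-1.45 ± 0.05, adjusted p = 8.97e-08) and in mutB1 (-0.36 ± 0.05, adjusted p = 0.000317), so of the mutant lines ΔSAP had less. Cxcl5, which attracts neutrophils, averaged 7.79 ± 0.10 in ΔSAP, 6.99 ± 0.05 in mutB1, 8.81 ± 0.07 in FL and 7.71 ± 0.04 in control (SD, n = 3). It was lowest in mutB1, with a difference from FL of -1.82 ± 0.06 (adjusted p = 8.38e-09). Cxcl10, an interferon-induced chemokine for T cells, averaged 11.42 ± 0.08 in ΔSAP, 12.01 ± 0.09 in mutB1, 12.24 ± 0.05 in FL and 9.73 ± 0.36 in control (SD, n = 3). It was above control in all 3 construct lines, and so was Cxcl9. Cxcl2, another attractant of neutrophils, had low line means throughout and averaged 5.04 ± 0.10 in ΔSAP, 4.80 ± 0.14 in mutB1, 6.15 ± 0.24 in FL and 4.47 ± 0.13 in control (SD, n = 3). Cx3cl1, a membrane-bound chemokine, ran the other way and averaged 10.14 ± 0.01 in ΔSAP, 9.75 ± 0.04 in mutB1, 9.66 ± 0.0007 in FL and 10.21 ± 0.05 in control (SD, n = 3). Beside these, of the 8 members other than Icam1, 6 were called lower and 1 higher in mutB1 against FL. There 12.1% of all genes were lower and 12.9% higher, and 21.4% and 23.9% of genes at the members' level. In ΔSAP against FL 1 of the 8 was lower and none higher. There 8.37% of all genes were lower and 8.35% higher, and 16.0% and 15.4% of genes at that level. The gap between the counts of these comparisons was not tested. In ΔSAP, Relb, Nfkb2 and Birc3 missed the call with adjusted p of 0.0137, 0.0141 and 0.0171, and all 3 were called, with Bcl3, when probe sets of a mean under 6 were left out.

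**Figure D3:**
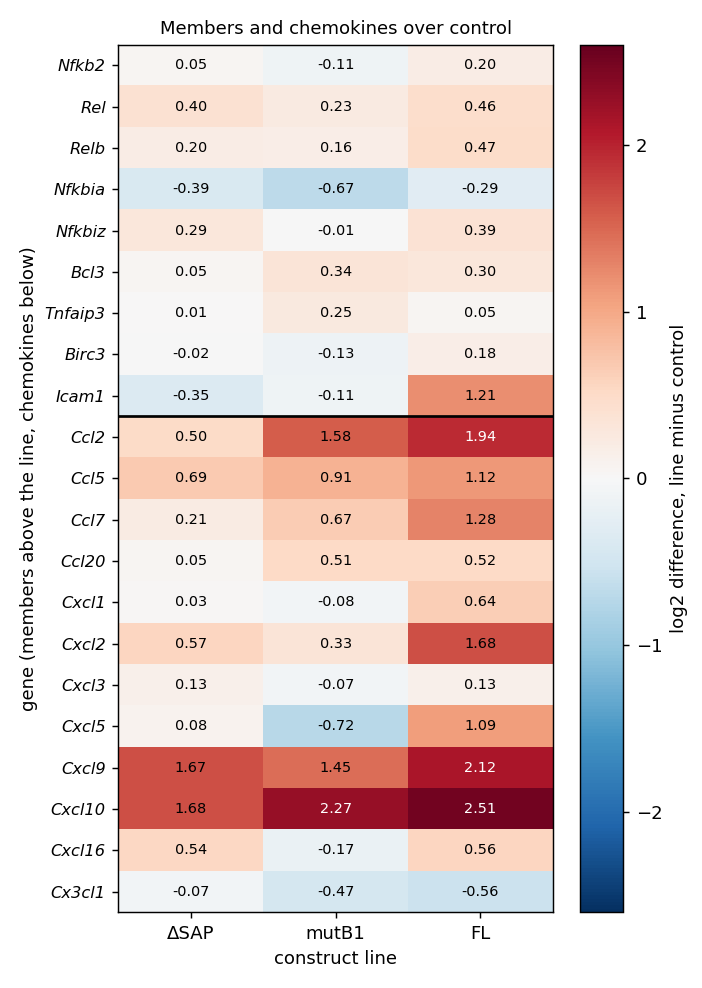
Log2 difference from control of the 9 members (above the black line) and 12 chemokine targets (below it) in the ΔSAP, mutB1 and FL lines; colour and number give the difference, and all 3 columns share the control arrays. Among the members only Icam1 in FL passes 1, while Ccl2, Ccl5, Ccl7, Cxcl2, Cxcl5, Cxcl9 and Cxcl10 pass 1 in FL.

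Beyond the members, 102 further genes of the pathway were listed under 9 roles, and 93 were measured. In mutB1 against FL 19 (20.4%) were higher and 23 (24.7%) lower. Genes at the members' level had 23.9% and 21.4%, and all genes 12.9% and 12.1%. Many of the 93 have means outside the members' level, so how far this count sets them apart depends on the share chosen. In ΔSAP against FL 12 (12.9%) were higher and 27 (29.0%) lower, where genes at that level had 15.4% and 16.0%, and all genes 8.35% and 8.37%. In FL against control 38 (40.9%) were higher and 18 (19.4%) lower, where genes at that level had 22.7% and 29.0%, and all genes 12.6% and 15.0%. For the other comparisons the shares of all genes are those given with the members. In mutB1 against control 29 (31.2%) were higher and 13 (14%) lower (15.6% and 19.6% at that level), and in ΔSAP against control 28 (30.1%) and 18 (19.4%), where the level gave 16.5% and 22.7%. In ΔSAP against mutB1 17 (18.3%) were higher and 27 (29.0%) lower, where it gave 17.2% and 22.0%. Their median difference was -0.07 in mutB1 against FL, -0.08 in ΔSAP against FL and 0.09 in FL against control, where the medians of all genes were 0.02, -0.03 and -0.03. These lists were drawn up with results of the same arrays known.

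Of the 5 other subunit and IκB genes, Rela, the main transactivating subunit p65, averaged 11.41 ± 0.05 in ΔSAP, 11.24 ± 0.05 in mutB1, 11.40 ± 0.04 in FL and 11.33 ± 0.05 in control (SD, n = 3) and was called in none of the 6 comparisons. Nfkbib, which encodes IκBβ, was highest in FL and averaged 11.70 ± 0.0033 in ΔSAP, 11.67 ± 0.05 in mutB1, 12.01 ± 0.04 in FL and 11.63 ± 0.02 in control (SD, n = 3). It was lower than in FL in ΔSAP (-0.31 ± 0.04, adjusted p = 0.000261) and in mutB1 (-0.34 ± 0.04, adjusted p = 7.13e-05). Nfkbie, which encodes IκBε, shared with Nfkbia a lower level in FL than in control (-0.22 ± 0.03, adjusted p = 0.000484). It was higher in mutB1 than in FL (0.20 ± 0.03, adjusted p = 0.00102).

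The role lists that follow are small, and their counts are to be read against those same shares. Genes at the members' level had 23.9% higher and 21.4% lower in mutB1 against FL, and 15.4% and 16.0% in ΔSAP against FL. All genes had 12.9% and 12.1% in mutB1 against FL, and 8.35% and 8.37% in ΔSAP against FL. Not every list lies at the members' level, and the measured ligands all have means below it. Of 9 kinase genes measured, 2 were higher and 1 lower in mutB1 against FL, and 1 was higher and 1 lower in ΔSAP against FL. Ikbke, an IKK-related kinase, was lower than in FL in both mutant lines, in ΔSAP (-0.31 ± 0.04, adjusted p = 0.00053) and in mutB1 (-0.34 ± 0.04, adjusted p = 0.000163). Tab1, an activator of the kinase TAK1, was higher in both, in ΔSAP (0.53 ± 0.05, adjusted p = 7.36e-05) and in mutB1 (0.36 ± 0.05, adjusted p = 0.000508). Of 13 adaptors, 4 were higher and 4 lower in mutB1 against FL, and 1 was higher and 3 lower in ΔSAP against FL. Traf1, an adaptor of TNF receptors and itself a target of NF-kB, was lower in mutB1 than in FL (-0.49 ± 0.05, adjusted p = 3.81e-05). Traf5, a related adaptor, was higher there (0.98 ± 0.05, adjusted p = 2.5e-07).

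Of 12 receptors, 4 were higher and 3 lower in mutB1 against FL, and 4 were higher and 2 lower in ΔSAP against FL. Tnfrsf1b, the second TNF receptor, was higher than in FL in both mutant lines, in ΔSAP (0.28 ± 0.04, adjusted p = 0.00083) and in mutB1 (0.58 ± 0.04, adjusted p = 3.09e-06). Tlr2, which senses bacterial lipoproteins, was lower in both, in ΔSAP (-0.51 ± 0.05, adjusted p = 4.22e-05) and in mutB1 (-0.22 ± 0.05, adjusted p = 0.00487). Of 7 ligands, only Il1a and Tnf were called in any comparison. Il1a, which encodes interleukin-1α, had the largest difference of the 93 genes in 4 of the 6 comparisons and averaged 8.68 ± 0.09 in ΔSAP, 5.34 ± 0.26 in mutB1, 8.47 ± 0.11 in FL and 4.79 ± 0.10 in control (SD, n = 3). It was high in ΔSAP and FL and low in mutB1 and control, the same pairs of lines as for Nfkbiz. Unlike Nfkbiz, Il1a was called higher in mutB1 than in control (0.55 ± 0.12, adjusted p = 0.00674), but its means in both lines lay under 6.35 and may be background. Tnf was low in all 4 lines.

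Of 12 further negative regulators, 1 was higher in mutB1 than in FL, while 2 were higher and 3 lower in ΔSAP. Tnip3, a partner of A20, averaged 9.21 ± 0.08 in ΔSAP, 9.78 ± 0.06 in mutB1, 9.86 ± 0.10 in FL and 7.79 ± 0.09 in control (SD, n = 3). Usp18, a protease that removes ISG15 and restrains interferon signalling, averaged 12.52 ± 0.04 in ΔSAP, 12.76 ± 0.06 in mutB1, 12.98 ± 0.02 in FL and 10.22 ± 0.17 in control (SD, n = 3). Both were above control in all 3 construct lines, in contrast to Tnfaip3, which was called above control in mutB1 alone. Of 12 survival and stress targets, 3 were higher and 3 lower in mutB1 against FL, and 1 was higher and 3 lower in ΔSAP against FL. Nos2, the inducible nitric oxide synthase, averaged 6.37 ± 0.14 in ΔSAP, 6.14 ± 0.08 in mutB1, 7.57 ± 0.07 in FL and 5.90 ± 0.09 in control (SD, n = 3) and, like Icam1, was lower than in FL by over 1 in both mutant lines. Its control and mutB1 means were low. Ptgs2, which encodes cyclooxygenase-2, was lower in mutB1 than in FL (-0.32 ± 0.04, adjusted p = 7.37e-05).

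Of 11 other cytokine, adhesion and acute-phase targets, 4 were higher and 3 lower in mutB1 against FL, and 2 were higher and 5 lower in ΔSAP against FL. Vcam1, an endothelial and stromal adhesion molecule often read together with Icam1, did not follow it and averaged 10.10 ± 0.05 in ΔSAP, 11.42 ± 0.07 in mutB1, 10.80 ± 0.04 in FL and 11.24 ± 0.01 in control (SD, n = 3). It was lower in ΔSAP than in FL (-0.70 ± 0.05, adjusted p = 6.1e-06), and in FL it was below control (-0.44 ± 0.05, adjusted p = 4.3e-05). Il23a and Csf3, which encode a subunit of interleukin-23 and the growth factor G-CSF, were lower in mutB1 than in FL. The difference was -1.77 ± 0.04 (adjusted p = 1.83e-09) for Il23a and -1.42 ± 0.04 (adjusted p = 5.96e-09) for Csf3.

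**Figure D4:**
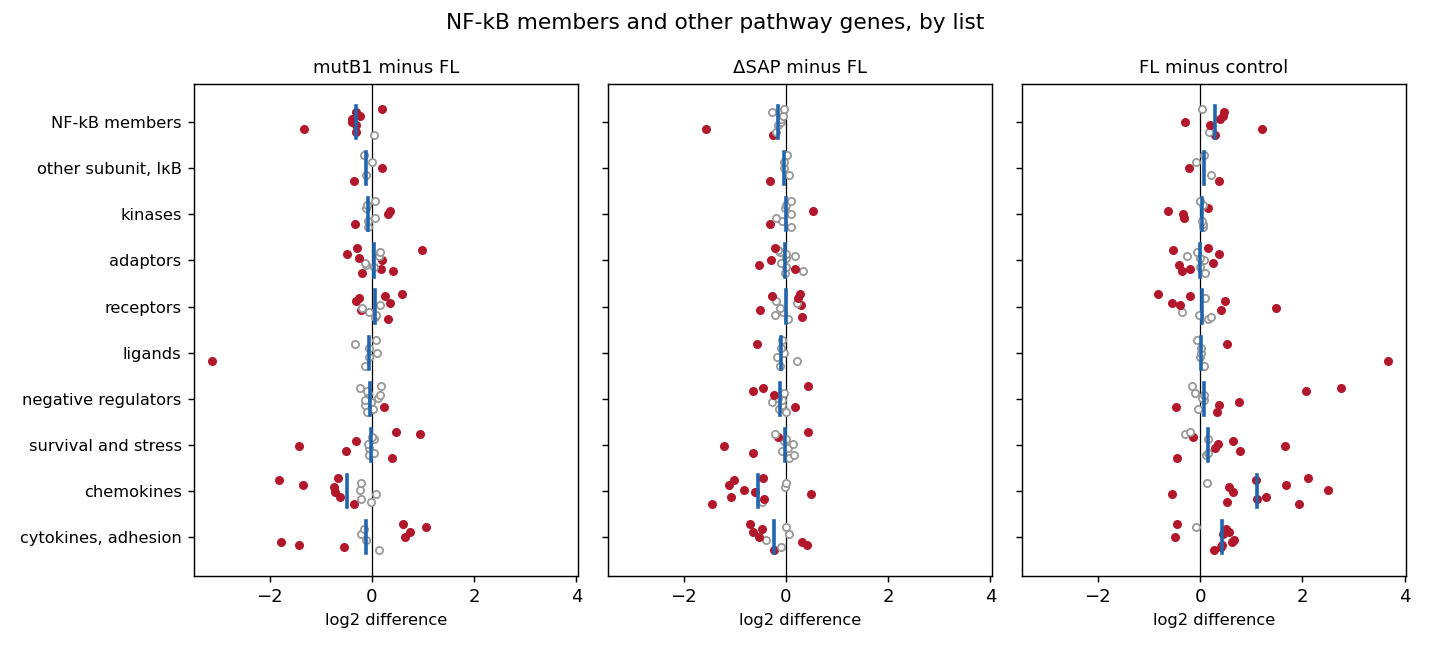
Log2 differences of the 9 members and of the 93 other pathway genes, grouped by role, in mutB1 minus FL, ΔSAP minus FL and FL minus control; each point is a gene, filled red where the adjusted p is at most 0.01, and blue bars are list medians. The chemokine medians lie at -0.49, -0.54 and 1.11, farther from 0 than those of the members (-0.30, -0.15 and 0.30).

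Icam1 was the only member whose line means spanned at least 1, and the genes most like it over the 12 arrays were sought among 853 genes with a span of at least 1 and a mean of at least 6. The 5 with the highest Pearson correlation were Ly9 (0.984), Mest (0.980), Hspb1 (0.974), As3mt (0.970) and Lsp1 (0.957). The 12 arrays are 4 lines of 3, so these values mainly restate 4 line means. FL was highest in all 5 genes, while the order of the other lines varied among them. Ly9, a surface receptor of leukocytes, averaged 9.21 in ΔSAP, 9.27 in mutB1, 10.46 in FL and 9.28 in control, with FL more than 1 above the rest. Hspb1, a small heat shock protein, averaged 11.20 in ΔSAP, 11.24 in mutB1, 12.66 in FL and 11.39 in control. None of the 5 is a member or stands on the pathway lists.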

How the data were processed

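RNA of 12 cultures (3 per line) was amplified from 100 ng and hybridised to Affymetrix Mouse Gene 1.0 ST arrays. The authors deposited RMA values on the log2 scale for each probe set, computed with the affy package, per the series design text, under R 2.10.0, per the submitters' processing notes. No scan date, batch, probe set definition or genome build was given in the sources used here. Of 34760 probe sets, 21640 carried 1 gene symbol in GEO's platform annotation, 1321 several and 11799 none, and 21553 were matched by Entrez number to RefSeq names (GRCm38.p6). The brightest probe set stood for a gene. The number of arrays limits the precision.

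Lines were compared with limma 3.58.1 in R 4.3.3 (lmFit, eBayes) in 1 fit of all arrays, with p-values adjusted over all probe sets (Benjamini-Hochberg), and the procedure was tested on simulated data. Named genes were all members, at most the 3 called genes with the largest difference per list, direction and comparison (some are left out here), the 5 genes most like Icam1, and Mrtfa. Rela, and the values of pathway genes in comparisons outside that rule, were added after their values were seen. The members and lists were chosen with earlier results of these data known. Replicate numbers were not used as pairs in the main fit. Deviations of same-numbered arrays of different lines correlated at -0.20 to 0.17, and those of differently numbered arrays at -0.16 to 0.27. These values show no sign of pairing but cannot tell whether cultures were paired. The alternatives tried were other scalings, filters on low values, variance models and call rules, fewer arrays, a replicate block and the mean of a gene's probe sets.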

Additional observations from a re-analysis of the deposited data

Results flagged for a closer look

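In several genes, listed here where the lines differed by at least 1 on the log2 scale, the difference from control was called in opposite directions in a pair of construct lines, and the difference between those lines was itself called in the same limma fit. Icam1 was the only member among them, with -0.35 in ΔSAP and 1.21 in FL against control, and ΔSAP minus FL at -1.57. Among the other pathway genes, Traf5 was at -0.68 in ΔSAP and 0.45 in mutB1 (ΔSAP minus mutB1 -1.13), and Tnfaip8 at -0.49 and 0.66 in the same lines (-1.15). Lcn2 was at -1.001 in ΔSAP and 0.16 in mutB1 (ΔSAP minus mutB1 -1.16). Cxcl5 was at -0.72 in mutB1 and 1.09 in FL (mutB1 minus FL -1.82). Csf3 was at 0.84 in ΔSAP, -0.99 in mutB1 and 0.42 in FL, with ΔSAP minus mutB1 at 1.83 and mutB1 minus FL at -1.42. Il23a was at 0.94 in ΔSAP, -1.15 in mutB1 and 0.62 in FL, with ΔSAP minus mutB1 at 2.09 and mutB1 minus FL at -1.77. Smaller differences of the same kind, under 1 between the lines, were found in 4 genes. They were Myd88 (ΔSAP minus mutB1 -0.49), Traf5 (mutB1 minus FL 0.98), Cxcl16 (mutB1 minus FL -0.74 and ΔSAP minus mutB1 0.71) and Lcn2 (mutB1 minus FL 0.65). All these differences from control share the control arrays.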

How the results depend on the processing

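Of 54 differences of members, 31 were called; 18 of these were called in every alternative run, 13 were lost in at least 1, and none changed sign. Of the 23 not called, 5 were gained in some alternative. Another 5, all close to 0, changed sign in some alternative. With arrays centred on their medians Tnfaip3 was at -0.0021 for FL minus control and -0.0037 for ΔSAP minus control. When 1 array was left out, Nfkbiz ranged from -0.021 to 0.011 for mutB1 minus control, Tnfaip3 from -0.071 to 0.0041 for ΔSAP minus FL and from -0.0013 to 0.026 for ΔSAP minus control, and Birc3 from -0.063 to 0.019 for ΔSAP minus control. Members called with 1 array left out numbered 5 to 8 for mutB1 minus FL, 1 to 3 for ΔSAP minus FL, 2 to 4 for mutB1 minus control and 3 to 6 for ΔSAP minus mutB1. The filters of the series design left 1 member in mutB1 minus FL, ΔSAP minus FL and FL minus control, and 0 in the other 3 comparisons, where limma calls 4, 4 and 6 at the adjusted p alone. Leaving out probe sets with a mean under 6 gave 5 members for ΔSAP minus FL. A fit of only the arrays of the lines compared, with fewer arrays for the spread, gave 1 for ΔSAP minus FL, 2 for mutB1 minus control and 1 for ΔSAP minus mutB1, and 23 and 28 other pathway genes in the last 2 comparisons, against 42 and 44. With the replicate block, 6, 1, 7, 3, 4 and 5 members were called in mutB1 minus FL, ΔSAP minus FL, FL minus control, mutB1 minus control, ΔSAP minus control and ΔSAP minus mutB1, against 8, 2, 7, 4, 4 and 6 without it. The causes of the changes in scaling and block were not tested. Low signals such as those of Cxcl2, Tnf and, in mutB1 and control, Il1a may lie near background.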
